A study of Mus musculus with 3 samples.

Results

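Cytochrome P450 genes were examined by array comparative genomic hybridisation, which sets DNA of a test sample against reference DNA probe by probe along the genome. Members were the autosomal gene names that start with Cyp and a digit. There were 84 of them among 20368 autosomal gene names on the array, with 215 of 161449 autosomal probes. All 84 are listed by RefSeq (GRCm38.p6), 81 under the array's name and 3 under a newer symbol, and RefSeq lists 134 autosomal Cyp symbols in all. The test DNA came from 3 neurosphere lines (tumour cells cultured as floating spheres) that had been established from mouse gliomas resistant to an inhibitor of CSF1R, a receptor of macrophages and microglia, and taken at passages 2 to 3 (Cy5). The reference was mouse liver DNA (Cy3) that carries the animal number of the line. Line 1 belongs to animal 43674, and lines 2 and 3 belong to animal 43289 and have the same liver label. The 3 lines form 1 group, with no treated or untreated counterpart. Strain, sex, age and tumour model are not given in the labels, nor whether livers were extracted separately, so p-values over lines measure only the spread between these samples. The assay reads DNA copies, so liver enzymes such as Cyp2e1 mark no cell type here.

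P450 enzymes are haem proteins that insert an oxygen atom into their substrate, with electrons passed on by a reductase. Families 1 to 3 mainly oxidise foreign compounds in the liver, family 4 hydroxylates fatty acids, and other families make or break down bile acids, steroid hormones, vitamin D and retinoic acid. In the mouse many of the genes of families 2 to 4 lie in tandem clusters of close relatives, a kind of region in which inbred strains often differ in gene number.

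The probes below cover the stretch in which the animals differed, described next: the first Cyp2b13 probe and the first and second J03549 probes differed, and the other 3 are shown as their neighbours. They are 5 adjacent probes in the order they have on chromosome 7 between the genes Cyp2b13 and Cyp2b9, both encoding P450s that act on steroids and drugs, and then the first Cyp2b9 probe. Sequences are those of the array design, strand not stated, and positions are mm9. No base is capitalised because no part of a probe is singled out.
Cyp2b13, chr7:26863707-26863761: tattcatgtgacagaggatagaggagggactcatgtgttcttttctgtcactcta
Cyp2b13, chr7:26876030-26876089: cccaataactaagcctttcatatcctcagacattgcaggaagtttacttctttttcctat
J03549, chr7:26885171-26885230: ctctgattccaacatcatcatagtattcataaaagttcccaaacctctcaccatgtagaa
J03549, chr7:26896215-26896274: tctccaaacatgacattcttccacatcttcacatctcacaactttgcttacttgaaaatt
J03549, chr7:26948215-26948262: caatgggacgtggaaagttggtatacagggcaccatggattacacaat
Cyp2b9, chr7:26970872-26970931: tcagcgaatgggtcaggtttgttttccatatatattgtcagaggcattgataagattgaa
The name J03549 is the array's own. It stands beside 15 probes from chr7:26722995 to 27075571, a stretch that encloses Cyp2b13 and Cyp2b9, and which transcript it denotes was not settled here. Exon, intron and untranslated region annotation of mm9 was not used. In RefSeq's order of gene starts (GRCm38.p6) Rnf170-ps, Gm29920 and Cyp2b26-ps, all pseudogenes, come between Cyp2b13 and Cyp2b9.

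Values are on the log2 scale throughout. A ratio is log2 of line over liver signal, and a channel level is log2 of the signal of 1 DNA alone, each centred on the array's autosomal median. A gain of 1 copy in a wholly diploid sample corresponds to a ratio of 0.585 and a loss of 1 copy to -1. Differences between neighbouring autosomal probes had a spread of 0.384, 0.232 and 0.238 in lines 1, 2 and 3, so line 1 was the noisiest. Over 96% of probes were well above background in each channel (96.3% to 99.4%). Among the 215 Cyp probes, 9 were not well above background in some channel and 3 of these in none of the 6. Precision over lines is limited by there being 3 arrays.

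Between Cyp2b13 and Cyp2b9, a short stretch of DNA was near the background in both the liver and the tumour line of animal 43674 and was read clearly in animal 43289. At the J03549 probe chr7:26885171-26885230 the liver level was -4.49 on array 1, and it was -1.49 and -1.61 on arrays 2 and 3. In the line channel that probe read -4.90, -1.31 and -1.62 for lines 1 to 3. Both channels of array 1 were not well above background there, and all 4 channels of the other arrays were, so the animals did not overlap in either channel.
At the next probe, chr7:26896215-26896274, liver gave -4.51 on array 1 and -0.79 and -0.75 on arrays 2 and 3. The lines gave -3.99, -0.74 and -0.91 at that probe, again with both channels of array 1 not well above background. Against the lowest signal that array 1 still read as well above background (-2.26 for liver, -2.67 for line), or the probe's own level where that was higher, animal 43289 was at least 1.63-fold higher in liver and at least 2.31-fold higher in line at the first probe, and at least 2.80-fold and 3.60-fold higher at the second. The ratio of line to liver at these probes was -0.40 and 0.52 in line 1, where neither channel had a usable signal, and between -0.14 and 0.19 in lines 2 and 3. The difference between the animals was thus carried by both channels and does not appear in the ratios of lines 2 and 3. Animal 43674 was read on array 1 alone, and both channels of a probe come from the same spots. Animal and array therefore cannot be told apart, here or in the comparisons of the animals below.
The size of the difference depended on the background correction, since normexp with an offset of 50 lifts all dim probes of an array to a common low level. With normexp the liver levels of the first probe were -1.29, -1.31 and -1.52 on arrays 1 to 3, so no difference was left in that channel, and the smaller channel difference of the second probe was 0.53. The place of the probes among the dimmest of array 1 was less affected. On array 1, 0.0427% and 0.0223% of autosomal probes read lower than the pair in liver, and 0.0118% and 0.0911% did in line. With normexp these shares were 0.216%, 0.208%, 0.0198% and 0.0935%. On arrays 2 and 3 between 4.99% and 24.6% of probes read lower, and between 6.31% and 26.7% with normexp, so the pair was among the dimmest probes of array 1 alone under both corrections.

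Cyp2b13 itself was read differently by its probes. At chr7:26863707-26863761 the liver level was -1.75 on array 1 against -0.35 and -0.62 on arrays 2 and 3. The line level was -2.25 in line 1 against -0.25 and -0.52 in lines 2 and 3. Signals were well above background on every array, and animal 43289 was 2.39-fold higher in liver and 3.65-fold higher in line. With normexp its smaller channel difference was 0.57, under the size of 1 used below. The probe at chr7:26876030-26876089 was nearly level, with liver at -2.12, -1.89 and -1.95 and lines at -1.85, -1.63 and -2.01, a difference between animals of 0.20 and 0.027. Cyp2b13 thus differed at its first probe and not by this measure at its second, which lies nearer to the J03549 pair.
Beyond the pair, the J03549 probe at chr7:26948215-26948262 went slightly the other way, by -0.53 in liver and -0.24 in line. The first Cyp2b9 probe differed by -0.24 and 0.025, and the last, at chr7:26990684-26990743, by -0.37 and -0.27. The middle Cyp2b9 probe, at chr7:26981840-26981899, was not well above background in any of the 6 channels, with levels from -4.52 to -3.67. The other 13 J03549 probes differed by -0.53 to 0.37 in liver and by -0.24 to 0.49 in line. The probes read everywhere on either side of the pair lie 72.1 kb apart. That is the widest a stretch limited to the pair could be at this probe spacing. Its left limit rests on the second Cyp2b13 probe alone, which was dim, at levels from -2.12 to -1.63. The first Cyp2b13 probe, beyond that limit, was also lower in animal 43674, and whether the difference runs on that far was not tested.

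**Figure D1:**
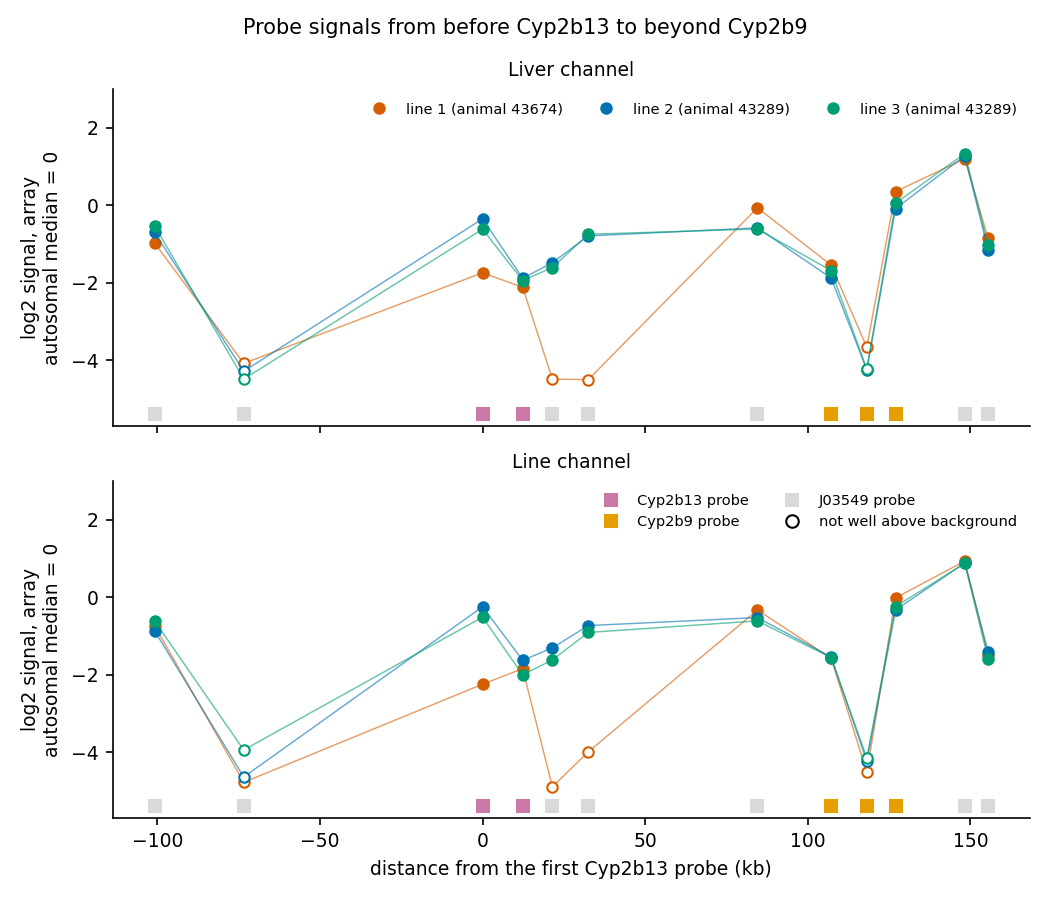
Channel level of each probe (log2 signal, array autosomal median at 0) against distance in kb from the first Cyp2b13 probe, with liver above and lines below; colours are the 3 arrays, open circles are probes not well above background, and squares give the probe's name. At 21.5 and 32.5 kb the array of animal 43674 drops to between -4.90 and -3.99 in both channels while both arrays of animal 43289 stay at -1.62 or higher.

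Differences carried by both the liver and the line of an animal were sought over the whole array with a rule of size: animal 43289 (mean of its arrays) minus animal 43674, the same sign in both channels, and at least 1 in each for a probe. With 1 animal on each side, and animal 43674 on array 1 alone, there is no test. Of the 215 Cyp probes 1 met the rule, the first Cyp2b13 probe, where 0.131% of all autosomal probes did (211 of 161449). Line 2 minus line 3, which share an animal, met it at 0 of the 215 Cyp probes and at 0.0229% of all probes. Inside the 9 Cyp clusters, counted over every probe whatever its name, 3 of 362 probes met it (0.829%), all on chromosome 7 and all lower in animal 43674, as were 0.0737% of all probes. These were the Cyp2b13 probe and the J03549 pair. Probes not well above background in both channels of animal 43674 and well above in all channels of animal 43289 made up 0.0886% of the array (143 probes), and the J03549 pair was the only run of 2 or more neighbours among them. The reverse, dark in animal 43289 alone, held for 0.0142% of probes and for 0 inside the clusters. These 2 shares are not alike, since the reverse asks for dark channels on both arrays of animal 43289. The first asks for them on array 1 only. In liver, 96.3% of spots were well above background on array 1, against 98.5% and 99.1% on arrays 2 and 3. The count over cluster probes, and the search for such runs, were added after the values had been seen.

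**Figure D2:**
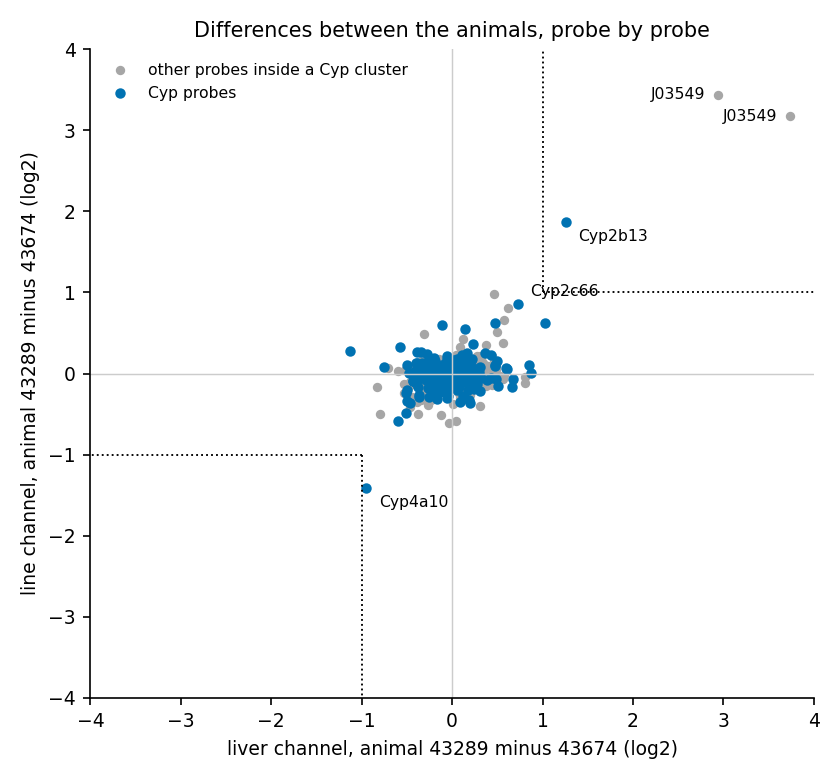
Difference between the animals (43289 minus 43674, log2) in the liver channel on the horizontal axis and in the line channel on the vertical axis, for the 215 Cyp probes and the 212 other probes inside Cyp clusters; dotted corners mark the rule of 1 in both channels. The J03549 pair and the first Cyp2b13 probe lie in the upper corner, and Cyp4a10 lies just outside the lower one.

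Among the other Cyp probes, the next in size belonged to Cyp4a10, a fatty acid hydroxylase induced through PPAR alpha, and went the opposite way. At chr4:115202715-115202774 liver was at -1.06, -1.92 and -2.09 on arrays 1 to 3, and the lines were at -0.79, -1.96 and -2.44. Animal 43289 was thus lower by both channels, at -0.95 in liver and -1.42 in line. The other Cyp4a10 probe, which starts at chr4:115191934, differed by only -0.17 and -0.089. A probe of Cyp2c66 at chr19:39189458-39189517 was higher in animal 43289, by 0.73 in liver and 0.85 in line. Over all 6 Cyp2c66 probes the mean difference was 0.12 in liver and -0.0083 in line. Cyp27a1, which starts side-chain oxidation of cholesterol, differed at chr1:74779926-74779985 by 1.02 and 0.63, but its liver signal on array 1 was not well above background. The other Cyp27a1 probe differed by -0.20 and 0.094. Cyp2c37 (-0.59 and -0.58, chr19:40080775-40080826) and Cyp2a22 (-0.51 and -0.49, chr7:27717732-27717781) followed. Differences of this size also arose within an animal. Line 2 minus line 3 was -0.66 in liver and -0.68 in line at the Cyp3a11 probe. At 0.5 in both channels, 2 Cyp probes differed between these sister lines and 5 between the animals. No share over all probes was counted at that size.
The sequences of the pair that went furthest in each direction after Cyp2b13 are shown so that their sites can be found.
Cyp4a10, chr4:115202715-115202774: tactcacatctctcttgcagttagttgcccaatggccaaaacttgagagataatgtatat
Cyp2c66, chr19:39189458-39189517: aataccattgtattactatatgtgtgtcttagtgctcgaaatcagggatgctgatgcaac
At 0.7 in both channels, 3 Cyp probes passed where 0.381% of all probes did. No 2 of the 215 Cyp probes shared a run of more than 16 bases on either strand.

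A gene's value averages its probes. Of the 29 Cyp genes with at least 3 probes, 0 differed between the animals by at least 0.5 in both channels, where 0.0658% of all 9124 such genes did and 0.011% did for line 2 minus line 3. Among the 55 with 1 or 2 probes, 3 did, Cyp2b13, Cyp2c37 and Cyp4a10. Of all names with at least 1 probe 0.594% did (121 of 20368). That pool takes in the 9124 genes of at least 3 probes, of which 6 did. The share for names of 1 or 2 probes alone is therefore higher than 0.594%. Of the 29 genes, 1 differed between the animals by 0.5 or more in the ratio of line to liver, where 0.362% of genes did. That was Cyp3a16, at 0.49 in line 1, 0.018 in line 2 and -0.031 in line 3, and 1 of its probes was not well above background on 1 array.

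The comparison of line with liver asks whether Cyp genes were gained or lost in the tumour cells. Shifts were small. Cyp39a1 and Cyp7b1, hydroxylases of oxysterols in bile acid synthesis, Cyp26b1, which clears retinoic acid, and several Cyp2 genes lay below liver, and Cyp1a1, the aryl hydrocarbon inducible enzyme, lay above. By limma (2-sided, Benjamini-Hochberg over 9124 genes), 10 of 29 Cyp genes passed an adjusted p of 0.05, where 24.4% of all genes did. Above liver were 3 (all genes 14.5%) and below it 7 (all genes 9.84%). At an unadjusted p of 0.05, 16 would have passed. The median of the 29 gene means was -0.077, against 0.013 over all genes, and the 29 means ran from -0.25 to 0.21, where all genes had a 5th percentile of -0.19 and a 95th of 0.24. The split of 3 above and 7 below became 1 and 7 with normexp background correction, 1 and 6 with loess, 2 and 8 in the authors' value table and 1 and 8 when each gene was set against its flanks. Of all genes, 21.5%, 20.3%, 18.2% and 24.4% passed in these settings, counted in either direction.
The count rested on treating the sister lines as separate samples. With lines 2 and 3 averaged to 1 value for their animal, 1 Cyp gene passed, Cyp39a1, and 8.19% of all genes. Without line 2 there were 3 (all genes 11.2%), without line 3 there were 4 (13.8%), and without line 1 there were 17 (33.2%), so the count moved with that over all genes.

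**Figure D3:**
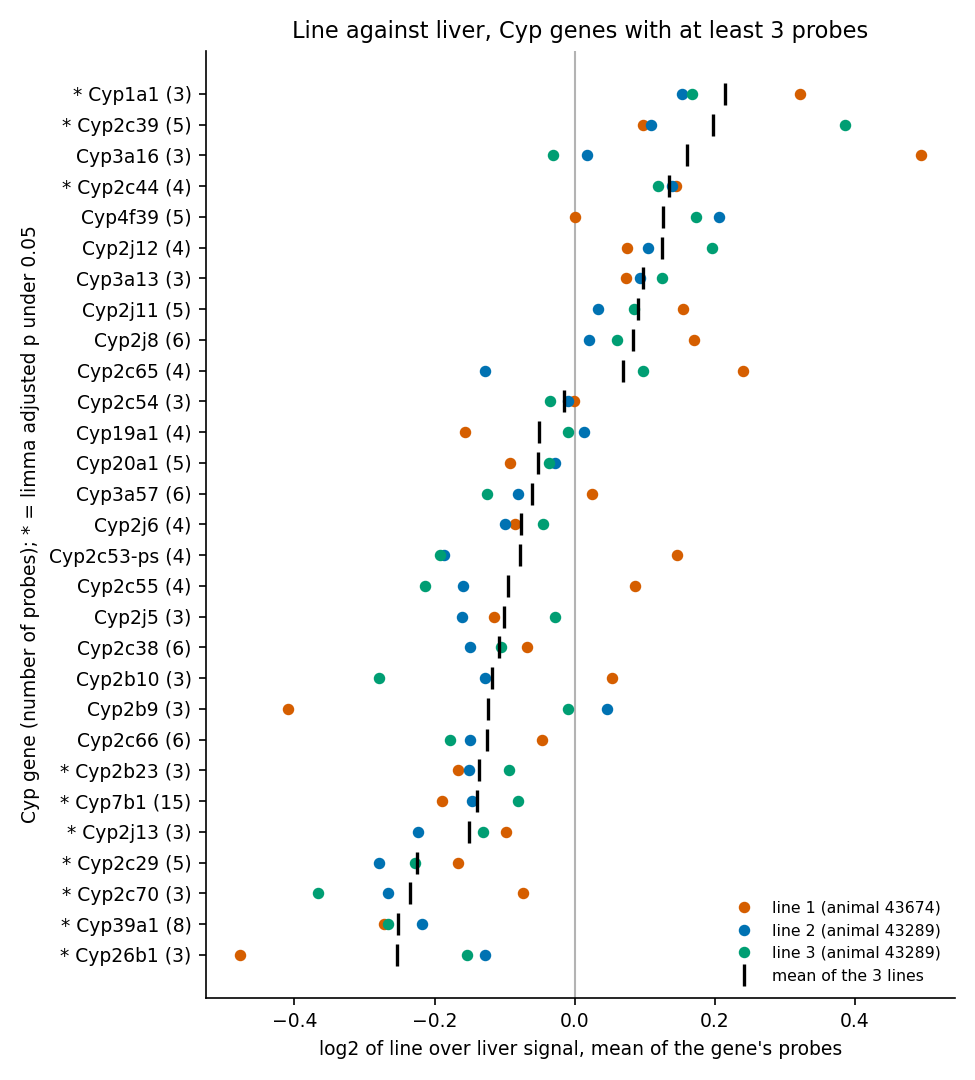
Log2 ratio of line over liver on the horizontal axis for the 29 Cyp genes with at least 3 probes (number of probes in brackets), with 1 point per line and a bar at the mean; asterisks mark genes past an adjusted p of 0.05 by limma. Means run from -0.25 for Cyp26b1 to 0.21 for Cyp1a1.

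Among the genes of sterol metabolism, Cyp39a1 (chr17:43812604-43884228) had ratios of -0.27, -0.22 and -0.27 in lines 1, 2 and 3 over 8 probes. Its mean was -0.25 ± 0.030 (SD, n = 3; limma SE 0.040, adjusted p = 0.0066). Of its 8 probes 6 lay below 0 and 2 above, from -0.64 to 0.16, with high and low probes interleaved along the gene. With normexp its mean was -0.11 (limma adjusted p = 0.13), the 1 of 12 alternatives in which it did not pass. Cyp7b1 (chr3:17972587-18137782) gave -0.19, -0.15 and -0.081 over 15 probes, a mean of -0.14 ± 0.054 (SD, n = 3; limma adjusted p = 0.045), with 11 probes below 0 and 4 above. It passed in 4 of 12 alternatives and in none of those without line 2, without line 3 or with 1 value per animal. All lines lay below liver in both genes. The remaining members with a sterol role had 1 or 2 probes and were not in the test: Cyp27a1 averaged 0.44, Cyp51 (lanosterol demethylase) 0.26, Cyp7a1 (the rate-limiting enzyme of bile acid synthesis) 0.22 and Cyp46a1 (cholesterol hydroxylase of neurons) -0.21.

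In the vitamin D and retinoic acid group, Cyp26b1 (chr6:84521940-84539654) was at -0.48 in line 1 and at -0.13 and -0.15 in lines 2 and 3. Its mean of -0.25 ± 0.195 (SD, n = 3; limma adjusted p = 0.030) therefore came mostly from line 1. Under the alternatives its mean lay between -0.38 and -0.070, and it passed in 6 of 11. It was the 1 tested gene of 6 in that group. Cyp27b1, which activates vitamin D, had a single probe with the highest ratio of any Cyp gene, at 0.82, 0.62 and 0.45. Of the steroid hormone genes, Cyp19a1 (aromatase) was tested and did not pass, at -0.16, 0.013 and -0.0094, and Cyp11a1 and Cyp17a1 had 1 probe each.

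Families 1 to 3 supplied 49 genes, 23 of them tested, with 3 above, 4 below and 16 that did not pass. Cyp1a1 (chr9:57536435-57551002) had ratios of 0.32, 0.15 and 0.17, a mean of 0.21 ± 0.094 (SD, n = 3; limma SE 0.047, adjusted p = 0.016). Its 3 probes ran upward along the chromosome, at -0.014, 0.17 and 0.48, and its neighbour Cyp1a2 gave 0.36, 0.51 and 0.33 at a single probe. Cyp2c29 (chr19:39365913-39404600) was below liver at all 5 probes, with -0.17, -0.28 and -0.23 in the lines (mean -0.22 ± 0.057, SD, n = 3; limma adjusted p = 0.010). Both genes encode drug-metabolising enzymes.
Cyp2c70, which makes muricholic acids in the mouse, was at -0.073, -0.27 and -0.37 (limma adjusted p = 0.023). Cyp2j13 was at -0.098, -0.22 and -0.13 (limma adjusted p = 0.037), and Cyp2b23 at -0.17, -0.15 and -0.094 (limma adjusted p = 0.042). Cyp2c44, an epoxygenase of arachidonic acid, was at 0.14, 0.14 and 0.12 (limma adjusted p = 0.041). It passed in 2 of 11 alternatives, and its mean of 0.13 fell to 0.044 with normexp, 0.070 in the value table, 0.081 with loess and 0.082 against its flanks. For these 4 genes the lines agreed in sign, and the direction was the same under each alternative, but each missed the threshold without line 2, without line 3 and with 1 value per animal. With normexp Cyp2j13 (mean -0.086) and Cyp2c70 (-0.16) also missed it, as did Cyp2b23 against its flanks (-0.068).

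Cyp2c39, another liver Cyp2c enzyme, passed at 0.098, 0.11 and 0.39 (mean 0.198 ± 0.163, SD, n = 3; limma adjusted p = 0.046) because of a single probe, shown here for that reason.
Cyp2c39, chr19:39631923-39631982: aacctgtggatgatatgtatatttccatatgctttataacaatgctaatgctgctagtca
Its ratios were 0.18, 1.17 and 2.01 in lines 1, 2 and 3, and it was well above background in 1 of the 6 channels, line 3. The other 4 Cyp2c39 probes averaged between -0.34 and 0.14. With probes not well above background left out, the gene's mean was -0.065, and with normexp it was -0.097.

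Of the 5 genes taken as markers of the family, Cyp2b9 had 3 probes and did not pass, with -0.41, 0.046 and -0.0089 in lines 1, 2 and 3 (limma adjusted p = 0.28). The low value of line 1 included the probe that no channel read. Cyp2b13 gave -0.11, 0.19 and 0.040 over 2 probes. Cyp7a1 gave 0.47, 0.080 and 0.11, Cyp3a11, the main drug-oxidising Cyp3a of mouse liver, -0.29, 0.10 and 0.13, and Cyp2e1, the ethanol-oxidising P450, 0.036, 0.32 and -0.039, each at 1 probe. The lines spread as widely as these values are large, so none stood clear of 0.
Family 4 had 19 genes, of which Cyp4f39 alone was tested and did not pass, with a median over the 19 gene means of -0.14. Cyp4b1 was the lowest of all 84 genes, at -0.73, -0.48 and -0.57 over 2 probes. When names with 1 or 2 probes were tested too, 19 of 84 Cyp genes passed by limma, where 22.9% of 20368 names did. Cyp4b1, Cyp2c37, Cyp27b1, Cyp27a1 and Cyp1a2 were among them, with adjusted p between 0.015 and 0.016.

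Part of the order among Cyp genes went with probe brightness. Over the 215 Cyp probes the mean ratio and the mean level of both channels had a Pearson correlation of -0.49, and -0.53 over all autosomal probes. This is a description across probes, which share arrays, dyes and slide. The 72 dimmest Cyp probes averaged a ratio of 0.085, the 71 in the middle -0.047 and the 72 brightest -0.21. All autosomal probes within the same limits of brightness averaged 0.18, 0.013 and -0.18, and the Cyp average was the lower in each part. GC content, with a median of 36.7% in both sets, had a correlation of -0.046 with the ratio in Cyp probes. Among the named genes, Cyp26b1 had a mean level of 0.97 and Cyp39a1 of 0.55, and Cyp27b1 had -0.54. Others ran against the trend: Cyp1a1, at a mean level of 0.50, lay above liver, and Cyp2b23, at -0.38, lay below. The part of brightness in single gene calls was not tested. Every line was labelled with Cy5 and every liver with Cy3, so dye and line cannot be told apart.

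**Figure D4:**
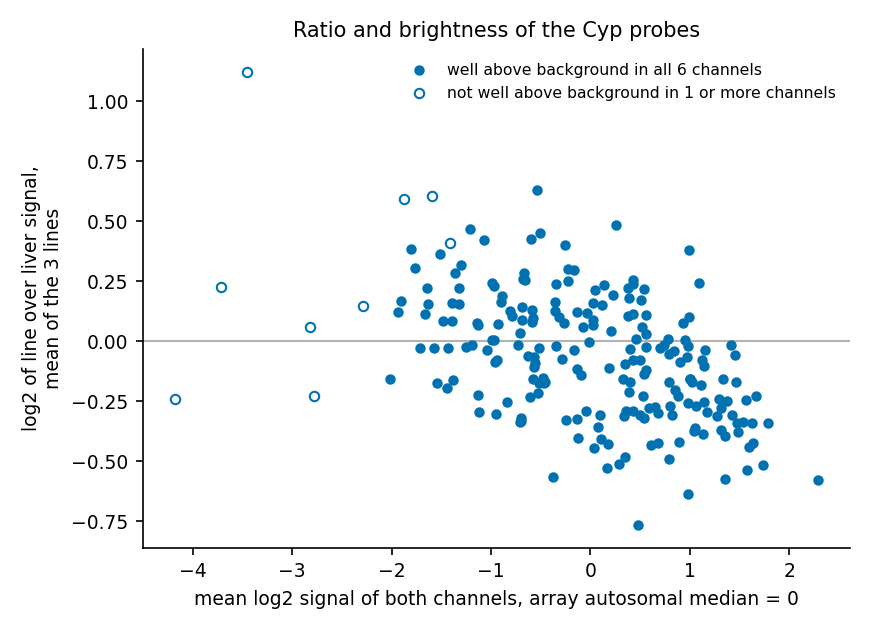
Mean log2 ratio of line over liver (vertical) against mean log2 channel level (horizontal, array autosomal median at 0) for the 215 Cyp probes; open circles are the 9 probes not well above background in 1 or more channels. Ratios fall from left to right, from an average of 0.085 in the dimmest to -0.21 in the brightest of 3 equal parts, and the highest point is the dim Cyp2c39 probe.

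Tandem clusters were compared as blocks, since a gain or loss of a cluster would move all its genes. Genes of 1 family within 1 Mb of each other gave 9 clusters with 62 genes and 150 Cyp probes. Only the Cyp1a pair on chromosome 9 (chr9:57526672-57551002, 4 probes) averaged 0.2 or more from 0, with 0.33, 0.24 and 0.21 in lines 1, 2 and 3 and a mean of 0.26 ± 0.064 (SD, n = 3). Its flanks, 86 probes within 500 kb, had medians of 0.065, 0.053 and 0.041. All 4 clusters with 1 sign in all lines had p = 0.25 by an exact sign flip test (2-sided), the smallest p that 3 lines allow. Cluster means lay between -0.19 and 0.26, inside the levels of a gain or loss of 1 copy (0.585 and -1).
Next highest was the Cyp2d cluster on chromosome 15 (5 genes, 5 probes), home of enzymes for basic drugs, at 0.175, 0.198 and 0.038, with Cyp2d34 at its top with 0.90, 0.64 and 0.24 on a probe not well above background in 1 channel. All 29 probes of that span averaged 0.015, and its flanks had medians of 0.10, 0.15 and 0.12. The Cyp26 pair on chromosome 19 (Cyp26a1 and Cyp26c1, 1 probe each) was at -0.12, 0.17 and 0.29, mostly from Cyp26c1 (-0.28, 0.21 and 0.46). Lowest was the Cyp4a, Cyp4b and Cyp4x cluster on chromosome 4 (9 genes, 14 probes) at -0.18, -0.14 and -0.25, led by Cyp4b1, and the 35 probes of its span averaged -0.13.
The chromosome 7 cluster of Cyp2a, Cyp2b and related genes (11 genes, 21 Cyp probes), which holds the J03549 pair, averaged -0.25, -0.086 and -0.14, with Cyp2f2, a P450 of the airway, lowest at -0.37. The Cyp4f cluster on chromosome 17 (8 genes) was at -0.15, 0.0048 and -0.099, with Cyp4f17 lowest at -0.34. The Cyp2c cluster on chromosome 19 (12 genes, 43 probes) was at 0.0034, -0.14 and -0.088, the Cyp3a cluster on chromosome 5 at 0.099, -0.029 and -0.088, and the Cyp2j cluster on chromosome 4 at 0.023, -0.035 and 0.042. These last 3 changed sign between lines, as did the Cyp4f cluster and the Cyp26 pair. The probe of Cyp2d26 was the single Cyp probe that lay wholly in the RefSeq window around a Cyp start site, from base -15 to base 40, and gave 0.16, 0.080 and -0.041.

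**Figure D5:**
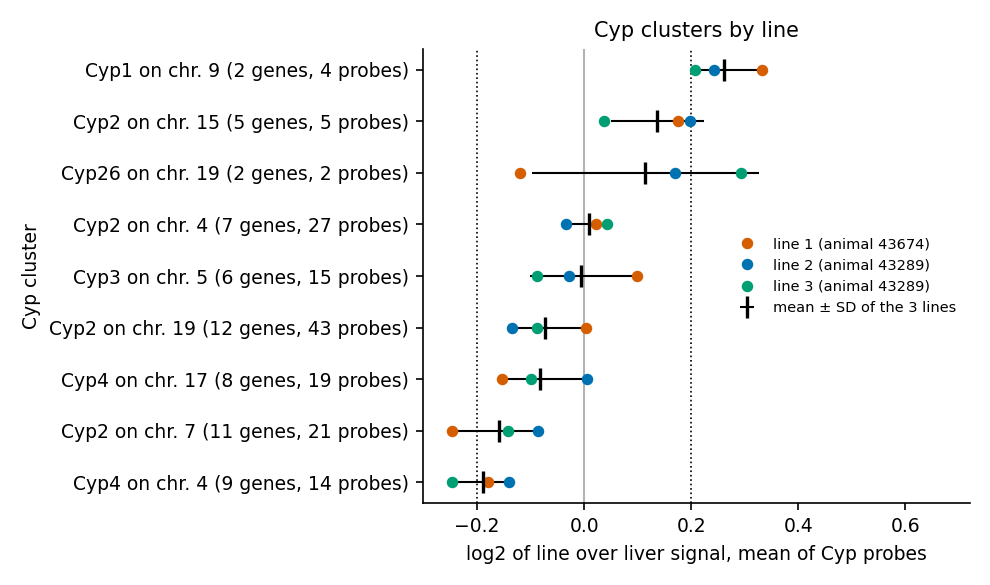
Log2 ratio of line over liver on the horizontal axis for the 9 Cyp clusters (numbers of genes and Cyp probes in brackets), with 1 point per line, a bar at the mean and whiskers of 1 SD over the 3 lines; dotted lines mark 0.2 on either side of 0. The Cyp1a pair at 0.26 lies beyond the mark, and the Cyp4 cluster of chromosome 4 at -0.19 comes next to it on the low side.

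The genes that work with P450s were read the same way, from a list of 61 symbols of electron partners, related P450s of other names, regulators and conjugating enzymes. On the array 51 had a probe and 21 were tested, of which 6 passed by limma (24.4% of all genes did), 2 above and 4 below, with a median of -0.013 over the 21 gene means. Among regulators, Ahr, the aryl hydrocarbon receptor that induces Cyp1a1, was at -0.38, -0.21 and -0.25 (limma adjusted p = 0.0071). Hnf4a, the hepatocyte nuclear factor, was at -0.36, -0.18 and -0.26 (limma adjusted p = 0.0086), and at a mean of -0.12 with normexp it did not pass (limma adjusted p = 0.096).
Rxra, the shared partner of nuclear receptors, was at -0.25, -0.053 and -0.29 (limma adjusted p = 0.031), and Ahrr, the repressor of Ahr, at -0.17, -0.13 and -0.14 (limma adjusted p = 0.031). With 1 value per animal neither passed (limma adjusted p = 0.057 and 0.115), and 4 of the 6 genes were left, where 8.19% of all genes passed. Rxra also missed the threshold with normexp (mean -0.13) and loess (-0.14). The other 7 tested regulators did not pass, among them Nr1i2, the pregnane X receptor that induces Cyp3a genes, with a mean of -0.013. Of the conjugating enzymes, Sult2b1, a sulfotransferase, was at 0.30, 0.35 and 0.31 (limma adjusted p = 0.0041). Gsta3, a glutathione transferase, was at 0.17, 0.32 and 0.35 (limma adjusted p = 0.0078) and lay at -0.073 with normexp, 0.072 with loess and 0.059 in the value table, passing in none of these. The electron donor Por, on which microsomal P450s depend, did not pass at -0.18, -0.038 and -0.17 (limma adjusted p = 0.067). Of the 4 tested electron partners and related P450s 0 passed an adjusted p of 0.05.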

How the data were processed

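The 3 arrays (Agilent, 180880 spots each, 6575 of them controls, 1 slide, no dye swap) were read with Agilent Feature Extraction 10.7.3.1, per the file headers. Per the file headers, the deposited processed intensity values are background-subtracted and dye-normalised by the authors' scanner software. The deposited log10 ratio equals Cy5 over Cy3 within 0.001 for 99.961%, 99.961% and 99.964% of spots on arrays 1 to 3. The authors' value table is on a log10 scale, with medians of 0.000435, -0.00146 and -0.00271 and correlations of 0.867, 0.844 and 0.884 with the scanner ratios. Its correction and centring are not given in the sources used here. Outlier spots (160 to 179 an array) were left out and spots of a probe averaged.

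Log2 of the ratio and each channel were centred on the autosomal median. Genes of at least 3 probes were averaged and tested against 0 with limma 3.58.1 (lmFit, eBayes) in R 4.3.3, with other steps in Python 3.11.15 (numpy 2.4.6, pandas 2.3.3). Tested on simulated data for line against liver (9124 genes), the limma step found 81 of 100 planted shifts of 0.5, 37 of 100 planted shifts of 0.25 and 2 genes without a shift. The simulated lines were independent of each other, with no trend of ratio with brightness. These numbers therefore give no rate of true or false calls for the real arrays, where lines 2 and 3 share an animal. Alternatives covered background correction, loess, quantile scaling, the value table, flanks, medians, probe minimums, thresholds, dim probes, animals and left-out lines. Members, lists and rules were chosen with earlier results of these data known. Named were 5 markers; up to 10 genes above and 10 below 0 past limma with 1 sign in all lines; up to 10 genes and 6 probes by difference between animals; the 3 highest and 3 lowest clusters with their leading genes; and list members past limma. Extreme single-probe genes, the J03549 probes and other examples were named after their values were seen.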

Additional observations from a re-analysis of the deposited data

Results flagged for a closer look

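The J03549 probes at chr7:26885171 and chr7:26896215 carry no Cyp name and enter none of the gene comparisons. The smaller of their channel differences between the animals was 2.94 and 3.17 (log2) as measured, which is not a bound because animal 43674 was not well above background there. With normexp the differences were 0 (the channels differed in sign) and 0.53. The bounds run from 1.63-fold to 3.60-fold.

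In 3 clusters lines 2 and 3 lay on the opposite side of 0 from line 1, and the difference was not tested. Animal 43289 minus animal 43674 was -0.16 for the Cyp3a cluster on chromosome 5, 0.34 for the Cyp26 pair on chromosome 19 and -0.12 for the Cyp2c cluster on chromosome 19.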

How the results depend on the processing

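The count of 10 Cyp genes past limma (of 29) was 5 with gene medians (all genes 19.8%), 5 of 11 with at least 5 probes (25%), 19 of 84 with at least 1 probe (22.9%) and 1 with 1 value per animal (8.19%), and it ran from 3 to 17 when a line was left out (11.2% to 33.2%). It was 7 to 10 with normexp, loess, the value table, flank centring and dim probes left out (all genes 18.2% to 25.6%). Of the 10 genes, 3 were called with normexp, 4 with loess and 7 in the value table. The 6 of 21 partner and regulator genes became 17 of 51 when single probes sufficed (all genes 22.9%) and 2 of 10 when 5 were required (25%). Without a line they became 4 to 8 (11.2% to 33.2%). Cyp genes differing between animals in both channels went from 0 to 3 with at least 1 probe (0.594% of all names), and stayed at 0 under the other 9 settings. For Cyp probes the count of 1 (0.131% of all probes) was 3 at a threshold of 0.7 (0.381%) and 0 at 1.3 (0.0526%). It was 0 with normexp (0.0706%) and 2 with quantile-scaled channels (0.127%). Without line 2 it was 2 (0.15%) and without line 3 it was 1 (0.142%). Over every probe of a cluster it was 3. Under a rule added later, above background in 1 animal alone, the 1 Cyp probe was another, of Cyp3a13, with near-equal liver levels of -2.28, -2.45 and -2.33 on arrays 1 to 3. The 1 cluster past 0.2 became 2 with medians, 2 with flank centring, 5 at a threshold of 0.1 and 1 to 2 without a line. Some genes past limma in the main or the changed setting turned sign. These were Cyp2c39 (-0.097 with normexp and -0.065 without dim probes), Cyp3a16 (-0.20 with normexp) and Gsta3 (-0.073 with normexp). Genes past it in neither setting turned too, among them Cyp20a1 (-0.052, and 0.046 with normexp) and Cyp2b10 (-0.12, and 0.039 with normexp). The cause was not tested except that leaving out dim probes removes the Cyp2c39 probe that stood apart. No paired analysis was possible because the lines form 1 group and each ratio already sets a line against its own liver. Changes smaller than the probe spacing, and levels near background, were not detectable.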
